A study of Mus musculus with 28 samples.

Results

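Tardbp is the mouse gene for TDP-43. It was chosen by its symbol, matched through the Ensembl identifier ENSMUSG00000041459, and is 1 of the 45513 genes in the deposited count tables. Ribosome-protected fragments (footprints) and total mRNA were each sequenced from 14 cultures, so Tardbp has a count in 28 libraries, 14 of each type. MN1 cells, a clonal hybrid of mouse spinal motor neurons with a mouse neuroblastoma, were transiently transfected with a plasmid for GFP, for human TDP-43 (hTDP-43) or for human TDP-43 with the ALS mutation A315T (hTDP-43 A315T), with 2 cultures in each group. The human proteins in MN1 cells carried a FLAG and a V5 tag, and these cells had received cycloheximide at 100 µg/ml for 3 min before lysis. Cortical neurons were taken from embryonic day 16 mice labelled C57BL/6J and grown for 14 days in vitro. They were wild type (WT, 2 cultures) or carried a transgene for hTDP-43 (3 cultures) or hTDP-43 A315T (3 cultures) under the prion protein promoter. In the paper the A315T transgene is FLAG-tagged and comes from another mouse line than the hTDP-43 transgene. The paper also reports a somewhat higher level of the mutant protein in these neuron cultures. The neurons got no cycloheximide before lysis, though in the paper the lysis buffer held it for both cell types. The cell types were also collected on other dates, so cell type, drug treatment before lysis and date cannot be told apart. How many embryos went into a neuron culture is not given in the sources used here.

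TDP-43 is an RNA-binding protein of the nucleus that prefers UG-rich RNA and takes part in splicing, RNA transport and RNA stability, and it is the main protein of the cytoplasmic inclusions seen in most ALS and in many cases of frontotemporal dementia. The protein limits its own level: it binds the 3′UTR of its own transcript, where changed splicing and polyadenylation lower the amount of translated mRNA, in part through nonsense-mediated decay. The question put to the data was therefore how the counts at endogenous Tardbp changed when human TDP-43, wild type or mutant, was added.

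Tardbp lies on the minus strand at chr4:148612382-148627019 (GRCm38). Its counted exons form 7 blocks of 7796 bases, of which 1245 (15.97%) are coding, for 414 residues, and 5879 bases (75.4%) lie 3′ of the stop codon. The annotation (GENCODE M21) lists 30 transcripts, 15 of them protein coding, 10 nonsense-mediated decay, 4 processed transcripts and 1 with a retained intron. Gene counts join all of these, so isoforms were not resolved. The first sequence is the mouse coding start at chr4:148625340-148625362, shown because the forward primer used for cloning the human sequence matches all 23 bases with 0 mismatches, and its capitals mark the start codon. The second surrounds the mouse codon at the position of A315T, in the last coding exon (chr4:148618548-148618576), with this alanine codon in capitals. The third is the 30-base window with most TG dinucleotides 3′ of the stop codon (chr4:148617136-148617165), with each TG in capitals. It lies in an exon of 6 transcripts, the principal one among them, and 1096 bases past the stop of that one.
Tardbp coding start: ATGtctgaatatattcgggtaac
Tardbp A315T codon: gatgaactttggtGCTtttagcattaacc
Tardbp 3′UTR window: TGtcaacTGcTGTGaaTGcTGtaTGgTGTG
The 3′UTR window holds 9 TG, against a mean of 2.66 over all windows of 30 bases 3′ of the stop codon. The letters describe the sequence, and binding was not measured. The human coding sequence itself was not used here, so reads from human TDP-43 mRNA and from mouse Tardbp mRNA cannot be told apart where the 2 species share sequence.

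The mouse genome also holds processed copies of the Tardbp coding sequence. Gm13886 (ENSMUSG00000083856), a processed pseudogene at chr2:104820178-104821361 on the plus strand, covers 96.2% of the coding bases at 93.9% identity. Of the 1216 windows of 30 bases in the Tardbp coding sequence, 224 (18.4%) have an exact copy in Gm13886 and 968 (79.6%) have one there within 3 mismatches, the number allowed in aligning a read of this length. The other annotated copies are further away, Gm2568 at 76.0% identity and Gm12879 at 73.8%, and were listed with 0 to 5 counts in every library. Counts of Tardbp and Gm13886 are uncertain in how reads were split between them.

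Libraries held 1328528 to 2988339 reads assigned to genes for total mRNA and 332370 to 1219222 for footprints in MN1 cells, and 600385 to 6969578 and 166064 to 2528820 in neurons. The shallowest were replicates 2 and 3 of hTDP-43 neurons. The 6 neuron markers summed to 4063 to 4716 CPM (reads per 1e+06 assigned reads, after scaling) in total mRNA of neurons and to 406 to 510 CPM in MN1 cells. Of the motor neuron markers, Isl1 stood at 26.7 to 39.0 CPM and Slc18a3 at 15.4 to 32.1 CPM in MN1 total mRNA, while Chat (0 to 2.55 CPM) and Mnx1 (0.606 to 1.38 CPM) were near 0. The 4 neuroblastoma markers summed to 925 to 1279 CPM there, of which Hand2 gave 842 to 1191 CPM. In neuron total mRNA the 5 astrocyte markers summed to 41.0 to 103 CPM and the 4 microglia markers to 0 to 3.13 CPM, far below the neuron markers. Lars2 took 3.09 to 18.8% of neuron total mRNA reads, most in WT replicate 3 (18.8%) and hTDP-43 replicate 3 (14.15%).

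In MN1 cells, counts at Tardbp were higher with either human protein, and by about the same amount for both. These counts can include reads of the human mRNA. The paper's blot of transfected MN1 cells shows less endogenous TDP-43 protein with either human form than with GFP. Total mRNA at Tardbp was 248 and 225 CPM in the GFP cultures (450 and 618 reads). It was 418 and 349 CPM with hTDP-43 (883 and 573 reads) and 427 and 383 CPM with hTDP-43 A315T (1410 and 836 reads). All 4 libraries with a human protein lay above both GFP libraries, and the ranges of hTDP-43 and A315T overlapped. Group means were 236 ± 15.7 CPM for GFP, 383 ± 48.8 for hTDP-43 and 405 ± 31.3 for A315T (SD, n = 2 each).

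Some marker sums moved with these groups too, and others did not. The motor neuron markers overlapped in MN1 total mRNA, at 50.6 to 72.9 CPM with GFP, 62.7 to 67.7 with hTDP-43 and 60.6 to 72.9 with A315T. The astrocyte sum was lower with a human protein, at 0.729 to 2.20, 0 to 0.473 and 0.303 to 0.458 CPM. The cortical excitatory markers were low, and Neurod6 among them had 0 CPM in all 6 libraries. In MN1 total mRNA the cortical excitatory markers summed to 20.4 to 23.3 CPM with GFP, 26.5 to 31.0 CPM with hTDP-43 and 33.5 to 34.3 CPM with A315T, without overlap. The neuron markers summed to 406 to 447, 413 to 476 and 485 to 510 CPM and the neuroblastoma markers to 925 to 1229, 1059 to 1250 and 1247 to 1279 CPM, so A315T lay above GFP in both lists. Their part in the Tardbp values was not tested.

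The log2 difference from GFP in total mRNA was 0.72 ± 0.15 (SE) for hTDP-43 and 0.71 ± 0.13 for A315T. In edgeR's quasi-likelihood fit with Benjamini-Hochberg adjustment over all genes tested, neither passed 0.05 (adjusted p = 1.00 and 0.849), and 0.01% and 0.00965% of all genes did in these fits. Cultures with the same replicate number shared a date. When that number entered the fit as a block, both differences passed, at 0.72 ± 0.08 (adjusted p = 2.63e-15) and 0.71 ± 0.09 (adjusted p = 1.13e-05), where 0.472% and 2.73% of all genes passed. These fits leave few residual degrees of freedom per gene and take most of the spread from all genes, which the size of p rests on. Within a date, total mRNA was 1.69 and 1.55 times that of GFP for hTDP-43 and 1.73 and 1.70 times for A315T. Without a block, the A315T difference ran from 0.61 to 0.82 (log2) over the 4 fits that left out 1 culture. Its ends were the fits without GFP replicate 2 (0.61) and without GFP replicate 1 (0.82). Each of these fits leaves 1 culture in a group. Mutant and wild-type protein differed by -0.02 ± 0.14 (log2, A315T minus hTDP-43, adjusted p = 1.00). With the block this difference was -0.02 ± 0.10 (adjusted p = 0.976), where 0.754% of all genes passed.

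Taking both human proteins against GFP, the difference in total mRNA was 0.72 ± 0.12 (log2, SE, adjusted p = 1.00), where 0.00973% of all genes passed, and 0.71 ± 0.08 with the block (adjusted p = 0.000158), where 0.0487% did. DESeq2 gave the same log2 value, 0.72, with an adjusted p of 0.0354. An exact permutation test over the 6 libraries gave a two-sided p of 0.0667, the smallest that 15 arrangements can give. The edgeR and DESeq2 p-values rest on a spread between cultures that is estimated in part from all genes.

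Footprints at Tardbp in MN1 cells were higher with the human proteins by a smaller amount. The GFP cultures had 309 and 285 CPM (306 and 267 reads). The hTDP-43 cultures had 389 and 417 CPM (275 and 156 reads), and the A315T cultures 400 and 361 CPM (469 and 204 reads). Again all 4 libraries with a human protein lay above both GFP libraries, while hTDP-43 and A315T overlapped. The means were 297 ± 16.7, 403 ± 20.2 and 380 ± 28.1 CPM (SD, n = 2 each).

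In footprints the neuron markers summed to 644 to 680 CPM with GFP, 603 to 644 with hTDP-43 and 711 to 750 with A315T, and the cortical excitatory markers to 10.7 to 14.1, 10.7 to 12.7 and 19.4 to 20.5 CPM. The footprint difference from GFP was 0.52 ± 0.18 (log2, SE) for hTDP-43, 0.36 ± 0.17 for A315T and 0.44 ± 0.15 for both, each with an edgeR adjusted p of 1.00. In these fits 0%, 0.0115% and 0% of all genes passed. In the last, 156 of 8535 genes had an unadjusted p under 0.05 and DESeq2 called 1 gene. With the replicate block the adjusted p was 0.128 for hTDP-43, 0.189 for A315T and 0.314 for both, where 0.156%, 0.624% and 0.105% of all genes passed. For A315T minus hTDP-43 with the block that share was 0.706%. The exact permutation test over the 6 libraries gave p = 0.0667, again the smallest possible, for a mean log2 difference of 0.40. A315T minus hTDP-43 was -0.16 ± 0.19.

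**Figure D1:**
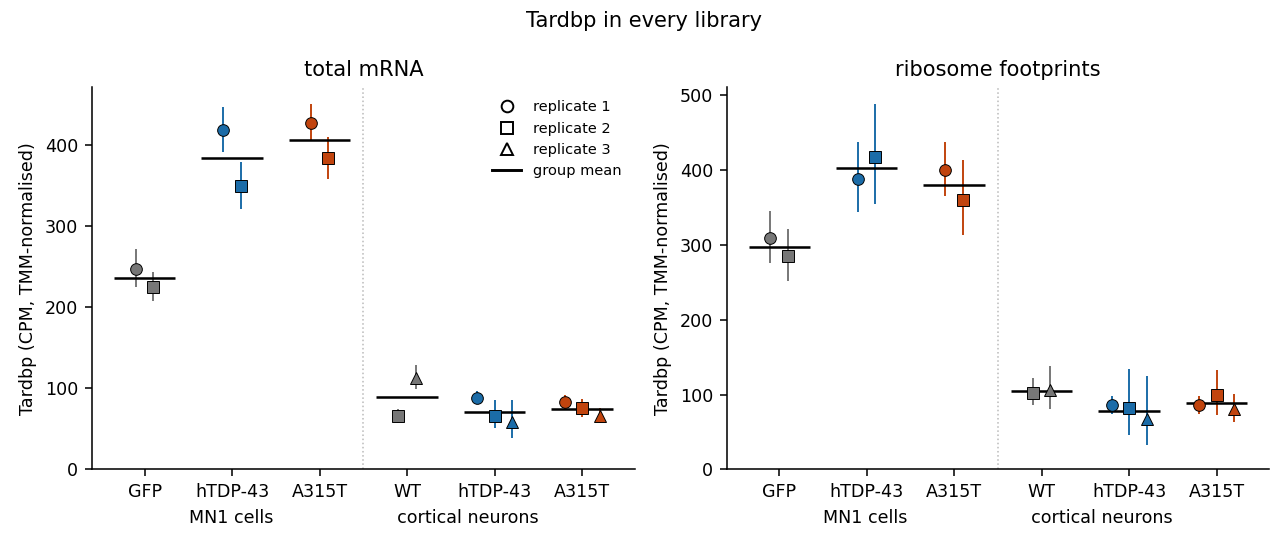
Level of Tardbp in each library (CPM, y axis) for total mRNA and footprints, by cell type and group. Points are cultures, with circle, square and triangle for replicates 1, 2 and 3, error bars are 95% exact binomial intervals that cover counting error only, and horizontal bars are group means. In MN1 cells every human-protein library lies above both GFP libraries (225 to 248 CPM total mRNA, 285 to 309 CPM footprints). In neurons the total mRNA values overlap, and the footprint values of the transgenic cultures (67.5 to 99.5 CPM) lie below both WT values (102 and 106 CPM).

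Footprints per mRNA at Tardbp, the ratio of the 2 levels in a culture, were lower in MN1 cells that received a human protein. Both levels can include reads of the human mRNA in these cultures, so the ratio is not that of the mouse mRNA alone. The part of the human reads was not tested. The log2 ratio of footprint to total mRNA CPM in the GFP cultures was 0.32 and 0.34. With hTDP-43 it was -0.10 and 0.26, and with A315T -0.10 and -0.09. All 4 ratios with a human protein lay below both GFP ratios, and hTDP-43 replicate 2 was nearest to them. Total mRNA was poly(A)-selected and footprints were not, so the ratio compares cultures and is not an absolute rate.

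In the fit of both library types, footprints per mRNA differed from GFP by -0.21 ± 0.23 (log2, SE) for hTDP-43 and by -0.37 ± 0.20 for A315T. The hTDP-43 value was -0.035 without hTDP-43 replicate 1 and -0.38 without hTDP-43 replicate 2. Over both proteins the difference was -0.30 ± 0.18 (edgeR adjusted p = 1.00), where 0% of all genes passed, 153 of 10212 had an unadjusted p under 0.05 and DESeq2 called 0. With the block the differences were -0.22, -0.38 and -0.30, and none passed (adjusted p = 0.982 for A315T), beside 0%, 0.0198% and 0% of all genes. For A315T minus hTDP-43 the share was 0.0399%. The exact permutation test gave p = 0.0667, the smallest possible, for a mean difference of -0.34. So the lower ratio held in all 4 cultures, but passed in none of the edgeR fits. The permutation test could not reach 0.05 with this number of cultures.

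**Figure D2:**
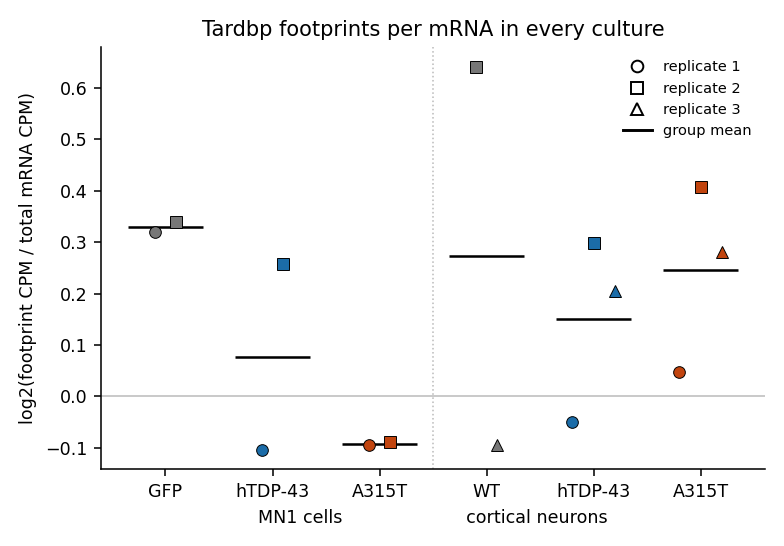
Footprints per mRNA at Tardbp as log2(footprint CPM / total mRNA CPM) on the y axis, by cell type and group, with 1 point a culture and bars for group means. The GFP cultures lie at 0.32 and 0.34, above the MN1 cultures with a human protein (-0.10 to 0.26), while the WT neurons lie at 0.64 and -0.09, at both ends of the neuron values. Ratios of cultures with a human protein can include reads of the human mRNA.

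Counts at the copy Gm13886 moved far more than those at Tardbp in the same MN1 libraries. As at Tardbp, reads of the human mRNA can be among them, and that part was not tested. Total mRNA at Gm13886 was 0 and 5 reads with GFP (0 and 1.82 CPM). It was 132 and 104 reads with hTDP-43 (62.4 and 63.3 CPM) and 293 and 173 reads with A315T (88.8 and 79.3 CPM). The groups did not overlap, and both A315T values were above both hTDP-43 values. Relative to GFP, total mRNA at Gm13886 was 57.3 times higher with hTDP-43 (95% counting interval 24.2 to 178) and 77.6 times higher with A315T (33.0 to 240). The log2 differences, 5.82 ± 0.51 and 6.15 ± 0.44 (SE), passed in edgeR without a block (adjusted p = 0.0387 and 0.00177). Without GFP replicate 2, the remaining GFP culture has 0 reads, and the fitted values, 9.87 and 10.66, are then no bound. It was the 1 gene that passed without a block in each of these comparisons (0.01% and 0.00965% of all genes).

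Footprints at Gm13886 were 3 reads in each GFP culture (3.03 and 3.21 CPM). They were 24 and 30 reads with hTDP-43 (33.9 and 80.2 CPM) and 63 and 44 reads with A315T (53.8 and 77.8 CPM). The human-protein groups overlapped and both lay above GFP, by 16.03 times (6.91 to 45.6) and 19.8 times (8.79 to 55.1). In edgeR without a block the difference passed for A315T (log2 4.29 ± 0.45, adjusted p = 0.00926) and not for hTDP-43 (4.10 ± 0.60, adjusted p = 0.277), and with the block both passed (adjusted p = 7.92e-07 and 2.11e-09). With all 3 groups in 1 unblocked fit the A315T difference was 4.28 and did not pass (adjusted p = 0.0841). The hTDP-43 difference passed in DESeq2 (adjusted p = 0.00309) and when any 1 culture was left out. A315T minus hTDP-43 at Gm13886 was 0.32 ± 0.17 in total mRNA and 0.20 ± 0.39 in footprints, and neither passed.

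Of the reads at both genes together, Gm13886 took 0 to 0.803% of total mRNA and 0.971 to 1.11% of footprints with GFP. It took 13.005 to 15.4% and 8.03 to 16.1% with hTDP-43, and 17.1 to 17.2% and 11.8 to 17.7% with A315T. The share of Gm13886 and the level of Tardbp were thus both higher in the 4 MN1 cultures with a human protein, in both library types. What part of the added reads at either gene came from the human mRNA was not tested. Human and mouse sources cannot be told apart in gene counts. Per kilobase of exon, total mRNA in the A315T cultures stood at 71.1 CPM at Gm13886 and at 52.0 CPM at Tardbp. Gm13886 is a copy of the coding sequence, while most exonic bases of Tardbp lie 3′ of the stop codon. Divided by coding length instead, total mRNA at Tardbp stood at 326 CPM per kilobase, so the order depends on the length used. Footprints, per kilobase of exon for the pseudogene and per kilobase of coding sequence for Tardbp, stood at 55.6 CPM and 306 CPM.

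With the reads of Gm13886 added to those of Tardbp, the differences from GFP in MN1 cells were larger. In total mRNA the sum differed by 0.94 (hTDP-43), 0.98 (A315T) and 0.96 (both), the last with an adjusted p of 0.25. With the replicate block these were 0.93, 0.97 and 0.95 (adjusted p = 2.80e-27, 3.17e-08 and 2.89e-06). In footprints with the block the sum differed by 0.68, 0.57 and 0.63 (edgeR adjusted p = 0.00215, 0.00464 and 0.0208), while Tardbp alone did not pass. Gm13886 had 3 footprint reads in each GFP culture and 24 to 63 with a human protein, so adding them had to enlarge the difference. The p-values of the sum are thus no test of a change at Tardbp itself. This sum was added after the data had been seen.

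**Figure D3:**
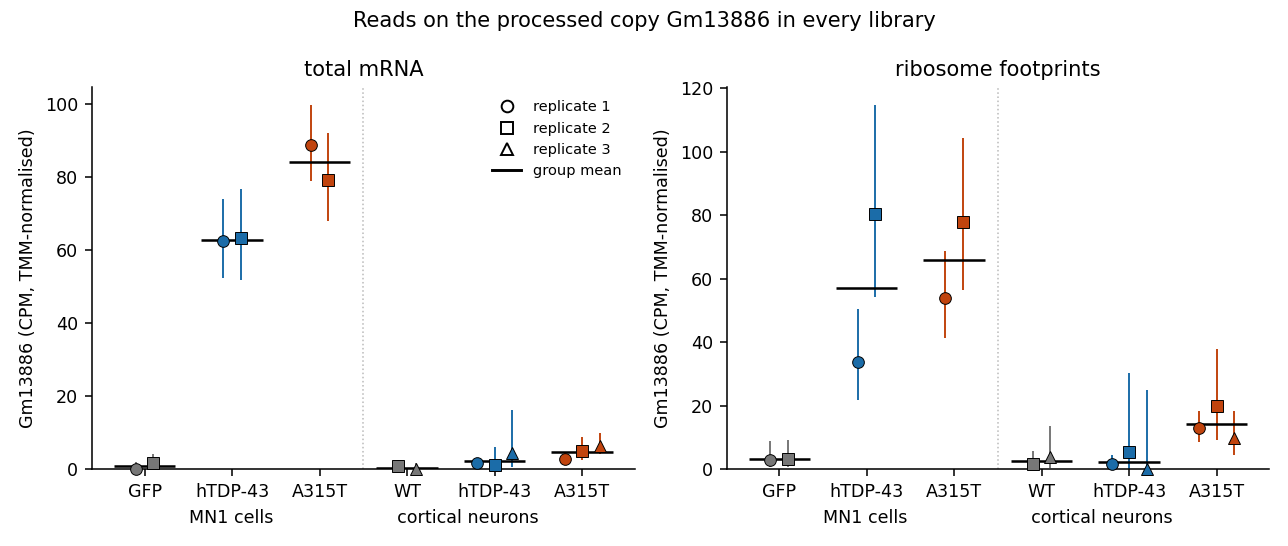
Level of the processed copy Gm13886 in each library (CPM, y axis), drawn as for Tardbp: points are cultures, error bars 95% exact binomial intervals for counting error, horizontal bars group means. With GFP it stands at 0 to 3.21 CPM, and at 33.9 to 88.8 CPM in the MN1 libraries with a human protein. Counts in cultures with a human protein can include reads of the human mRNA. In neurons the highest values are the footprints of A315T (9.73 to 19.9 CPM).

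In neurons, total mRNA at Tardbp did not separate the genotypes. WT replicates 2 and 3 had 65.7 and 113 CPM (231 and 245 reads). The hTDP-43 cultures had 88.5, 66.2 and 58.5 CPM (551, 61 and 26 reads), and the A315T cultures 82.6, 75.0 and 65.8 CPM (389, 169 and 223 reads). The WT cultures lay near the bottom and at the top of the range, so all groups overlapped. The means were 89.4 ± 33.5 CPM for WT (SD, n = 2), 71.1 ± 15.6 for hTDP-43 and 74.5 ± 8.42 for A315T (SD, n = 3 each).

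The log2 difference from WT in total mRNA was -0.29 ± 0.34 (SE) for hTDP-43, -0.26 ± 0.29 for A315T and -0.27 ± 0.25 for both. None passed in edgeR, where 0% of all genes did in each fit. Nor did any pass with the block, beside 0.169%, 0.293% and 0% of all genes. In the fit of both without the block, 237 of 12277 genes had an unadjusted p under 0.05 and DESeq2 called 0. The exact permutation test over the 8 libraries gave p = 0.357 (smallest possible 0.0357). Within replicate 2, total mRNA differed from WT by 0.01 for hTDP-43 and by 0.19 for A315T, and within replicate 3 by -0.95 and -0.78. The direction thus rested on WT replicate 3, the library with most Lars2 reads: without it the differences were 0.17, 0.18 and 0.18. The summed astrocyte markers moved as well, from 52.1 to 66.2 CPM in WT to 67.3 to 85.6 CPM with hTDP-43 and 41.0 to 103 CPM with A315T, without overlap between WT and hTDP-43. The microglia sum was 2.77 to 3.13 CPM in WT, 0 to 2.73 CPM with hTDP-43 and 1.18 to 3.11 CPM with A315T. Their part in the Tardbp values was not tested. In bulk cultures, fewer cells of a type and less RNA per cell cannot be told apart.

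Footprints at Tardbp in neurons were lower in every transgenic culture than in both WT cultures. The WT values were 102 and 106 CPM (131 and 56 reads). The hTDP-43 values were 85.5, 81.4 and 67.5 CPM (190, 15 and 10 reads) and the A315T values 85.4, 99.5 and 80 CPM (199, 45 and 74 reads). Neither transgenic group overlapped WT, but hTDP-43 and A315T overlapped each other, and the nearest transgenic culture, A315T replicate 2, was close to WT. Counting error was wide in the shallow libraries, with 95% exact intervals of 45.6 to 134 CPM and 32.4 to 124 CPM for hTDP-43 replicates 2 and 3. The means were 104 ± 2.45 CPM for WT (SD, n = 2), 78.1 ± 9.45 for hTDP-43 and 88.3 ± 10.1 for A315T (SD, n = 3 each).

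The log2 footprint difference from WT was -0.35 ± 0.21 (SE, adjusted p = 0.918) for hTDP-43, -0.26 ± 0.18 for A315T and -0.31 ± 0.17 (adjusted p = 1.00) for both. None passed in edgeR, where 0% of all genes did. With the block, too, Tardbp did not pass, beside 0.0616%, 0.0841% and 0.0434% of all genes, and 0.179% for A315T minus hTDP-43. In the fit of both without the block, 431 of 9212 genes had an unadjusted p under 0.05 and DESeq2 called 0. The exact permutation test over the 8 libraries gave p = 0.0714 (smallest possible 0.0357) for a mean difference of -0.33. A315T minus hTDP-43 was 0.11 ± 0.19, and 0.01 ± 0.20 in total mRNA. With the reads of Gm13886 added, the footprint groups overlapped, and the A315T difference was -0.08 without a block and -0.04 with it.

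Footprints per mRNA at Tardbp in neurons had no direction shared by the cultures. The log2 ratio was 0.64 and -0.09 in WT, -0.05, 0.30 and 0.20 with hTDP-43, and 0.05, 0.41 and 0.28 with A315T. The 6 transgenic values all fell between the WT values. The fitted differences were -0.07 ± 0.42, 0.01 ± 0.35 and, for both, -0.04 ± 0.31 (log2, SE), where 0% of all genes passed in edgeR, 194 of 11654 had an unadjusted p under 0.05 and DESeq2 called 0. The exact permutation test gave p = 0.786. Over the 6 exact tests of Tardbp, 3 measures in each cell type, the adjusted values were 0.107 for all but neuron total mRNA (0.429) and neuron footprints per mRNA (0.786). The 3 MN1 tests could not have passed 0.05, as their smallest possible p is 0.0667.

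Gm13886 had few reads in neurons, most of them with A315T. In transgenic cultures these can include reads of the human mRNA, and that part was not tested. The 2 transgenic groups also differ in mouse line, tag and level of human protein, which cannot be told apart from the mutation. Total mRNA held 3 and 0 reads in WT, 10, 1 and 2 with hTDP-43, and 13, 11 and 22 with A315T. Footprints held 2 and 2 reads in WT, 4, 1 and 0 with hTDP-43, and 30, 9 and 9 with A315T. All 3 A315T footprint values (12.9, 19.9 and 9.73 CPM) lay above every WT and hTDP-43 value (0 to 5.43 CPM). Relative to WT, A315T was 8.42 times higher in total mRNA (2.71 to 42.3) and 5.85 times higher in footprints (2.14 to 22.3), counting error only. In edgeR the differences were 3.10 ± 0.93 and 2.50 ± 0.67 (log2, SE), and neither passed (adjusted p = 1.00 each). In total mRNA the value rested on single WT cultures, at 2.39 without WT replicate 3 and at 6.87 (adjusted p = 0.0479) without WT replicate 2, where the remaining WT culture has 0 reads. The excess with A315T was thus larger than counting error and not past the test over cultures. For hTDP-43 the ratios were 3.24 (0.891 to 17.7) and 0.884 (0.190 to 4.46), and the gene did not pass the low-count filter. Of footprints at both genes, Gm13886 took 1.50 to 3.45% in WT, 0 to 6.25% with hTDP-43 and 10.8 to 16.7% with A315T.

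Prnp, whose promoter drives the transgenes, is given as a reference for the cultures. In neuron total mRNA it was 388 and 178 CPM in WT, 364, 393 and 304 CPM with hTDP-43, and 358, 425 and 435 CPM with A315T. WT replicate 3 was the lowest, and the groups overlapped (log2 difference of both transgenic groups from WT 0.43 ± 0.27, edgeR adjusted p = 1.00). Without WT replicate 2 this difference was 1.12 (adjusted p = 0.0464), and without WT replicate 3 it was -0.025. In neuron footprints Prnp was 407 to 562 CPM, with a difference of -0.00 ± 0.15. In MN1 total mRNA it was 73.3 to 83.4 CPM over all groups.

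The response to a human protein was set directly against that of the other cell type. In total mRNA the neuron difference minus the MN1 difference was -1.003 ± 0.31 (log2, SE, edgeR adjusted p = 1.00), and in footprints -0.70 ± 0.22 (adjusted p = 1.00). The total mRNA value was -0.56 without WT neuron replicate 3 and -1.32 without WT neuron replicate 2 (adjusted p = 0.0969). With the block these were -1.11 ± 0.28 and -0.69 (adjusted p = 0.809 for footprints, beside 0.028% of all genes). Among all genes 0% passed in both, 251 of 12801 and 336 of 10698 had an unadjusted p under 0.05, and DESeq2 called 0. The cell types also differed in how human TDP-43 was supplied, by plasmid or by transgene, which cannot be told apart from cell type.

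Without any human protein, Tardbp was higher in MN1 cells than in neurons. WT neurons minus GFP cells was -1.31 ± 0.37 (log2, SE, edgeR adjusted p = 0.0194) in total mRNA and -1.44 ± 0.23 (adjusted p = 2.39e-06) in footprints. In these comparisons 53.5% and 70.9% of all genes passed, so a change of this kind was common. The total mRNA call did not hold without GFP replicate 1 (adjusted p = 0.126) or GFP replicate 2 (adjusted p = 0.0862), each of which leaves 1 GFP culture.

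The order of total mRNA levels from the highest was MN1 A315T, MN1 hTDP-43, MN1 GFP, WT neurons, A315T neurons and hTDP-43 neurons. A315T and hTDP-43 in MN1 cells were within each other's spread, as were the 3 neuron groups. Footprints had the same 6 places except that hTDP-43 and A315T changed order in MN1 cells. Per kilobase of exon, Tardbp stood at the 88.2nd percentile of protein-coding genes detected in total mRNA of GFP cells, at 93.0 with hTDP-43 and at 93.6 with A315T. The human-protein groups stood above GFP, with counts that can include reads of the human mRNA. In neurons these percentiles were 72.0 for WT, 67.4 for hTDP-43 and 69.2 for A315T. For footprints they were 87.9, 91.1 and 90.6 in MN1 cells and 71.6, 65.9 and 70.2 in neurons.

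**Figure D4:**
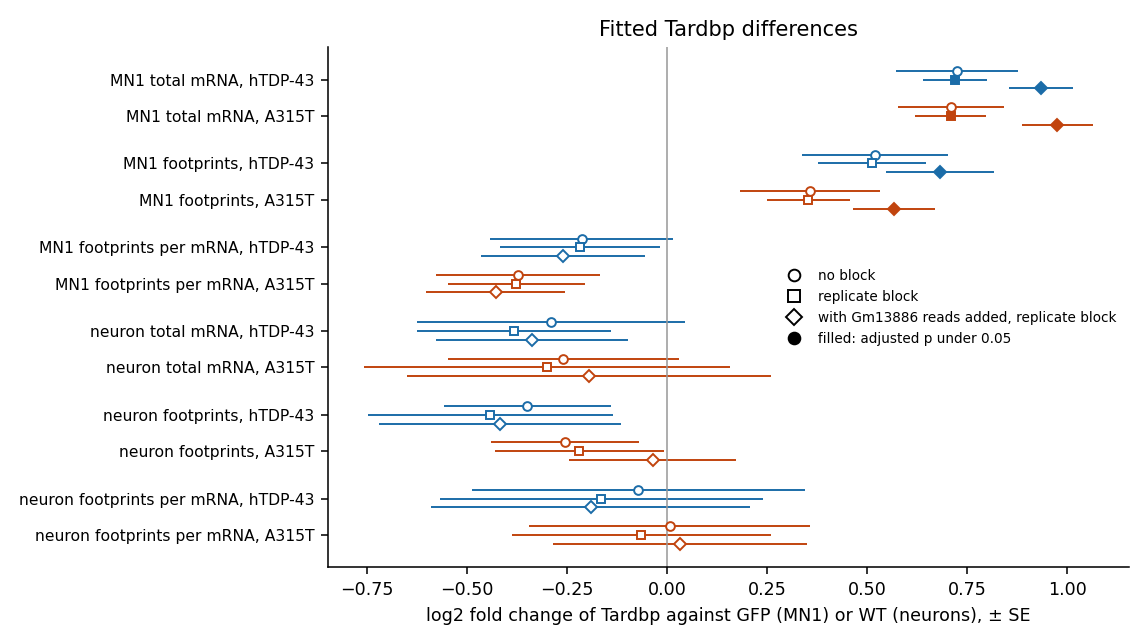
Fitted log2 differences at Tardbp (x axis, ± SE) for each comparison of a human-protein group with its control. Circles are fits without a replicate block, squares fits with it and diamonds fits with the block after the reads of Gm13886 were added, and filled symbols have an adjusted p under 0.05. The filled symbols are the blocked MN1 total mRNA fits (0.71 and 0.72 on Tardbp alone, 0.93 to 0.97 with Gm13886) and the blocked MN1 footprint fits with Gm13886 (0.57 to 0.68), while no neuron fit is filled. In MN1 cells the added Gm13886 reads were few with GFP, so the diamonds had to lie further from 0.

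Genes of the pathway around Tardbp were described as 4 lists. Factors of nonsense-mediated decay (14 genes), which degrade mRNAs with a premature stop, had a median log2 difference of -0.01 in MN1 total mRNA and -0.12 in MN1 footprints for either human protein against GFP. In neurons against WT their medians were -0.03 and 0.01. As a group they thus lay near 0, with MN1 footprints the lowest. Other RNA-binding proteins known to limit their own mRNA (16 genes) had medians of -0.14 and -0.03 in MN1 cells and 0.02 and -0.06 in neurons. Partners of TDP-43 in splicing and RNA granules (13 genes) stood at -0.06 and -0.08, and at 0.04 and 0.04. The mRNAs known to respond to TDP-43 levels (12 genes, of which 9 and 8 passed the filter in MN1 cells) stood at 0.12 and -0.01, and at 0.08 and 0.12. Over all genes tested the medians were -0.01 in both MN1 comparisons and -0.00 in both neuron comparisons.

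In these 4 comparisons 0 list members passed in edgeR without a block, and 0 in DESeq2. At an unadjusted p under 0.05 there were 1 of 52 in MN1 total mRNA, beside 208 of 10277 genes in all, and 2 of 51 in MN1 footprints, beside 156 of 8535. There were 0 of 55 in neuron total mRNA, beside 237 of 12277, and 3 of 54 in neuron footprints, beside 431 of 9212. With the replicate block there were 12 of 52 in MN1 total mRNA, beside 975 of 10277, and none of them passed after adjustment. Of the most expressed members, Upf1, the helicase of nonsense-mediated decay, had the largest difference in MN1 total mRNA (0.31 ± 0.14, log2, SE), and the RNA-binding protein Hnrnpa2b1 the lowest (-0.21 ± 0.19). Eif4a3, a core factor of the exon junction complex, differed there by 0.02 ± 0.12. Splicing regulators Hnrnpl, Srsf2 and Hnrnpa1 differed by 0.16 ± 0.11, -0.05 ± 0.13 and -0.11 ± 0.14. The other members named by rule, Ddx5, Sfpq, Eif4h, Dnajc5 and Hdgfl2, lay between -0.19 and 0.12. All of these were smaller in size than the 0.72 of Tardbp in that comparison, which can include reads of the human mRNA. In neuron total mRNA, Eif4a3 differed by 0.45 ± 0.31, Eif4h by 0.35 ± 0.28 and Sfpq, a paraspeckle protein, by -0.33 ± 0.25, and in neuron footprints Srsf2 differed by 0.44 ± 0.20. These were larger in size than the values of Tardbp in neurons (-0.27 and -0.31).

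With the replicate block, 5 of 52 members passed in MN1 total mRNA of A315T against GFP, beside 2.73% of all genes. In the same comparison 0 of 52 passed in edgeR without the block (3 at an unadjusted p under 0.05) and 0 in DESeq2, and for hTDP-43 against GFP 0 of 52 passed with the block (3 at an unadjusted p under 0.05). With the block, in A315T against GFP, Upf1 rose by 0.40 ± 0.10 (log2, SE, edgeR adjusted p = 0.0220) and Poldip3, whose splicing responds to TDP-43, by 0.34 ± 0.10 (adjusted p = 0.0422). The RNA-binding proteins Hnrnpa2b1 (-0.34 ± 0.09, adjusted p = 0.0260), Matr3 (-0.79 ± 0.19, adjusted p = 0.0196) and Hnrnpa3 (-0.51 ± 0.11, adjusted p = 0.00677) fell. Upf1 was not past the threshold for both proteins against GFP with the block (0.31 ± 0.09, adjusted p = 0.321), nor was Hnrnpa2b1 (-0.23 ± 0.08, adjusted p = 0.364). The comparisons within a cell type share the control cultures.

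Between the cell types without human protein, 8 of 55 list members were higher and 17 lower in total mRNA of WT neurons than of GFP cells, beside 53.5% of all genes (3749 higher and 2722 lower). Of the 14 decay factors 0 rose and 2 fell (Eif4a3, -2.08 ± 0.42 on the log2 scale, and Rbm8a, -1.28 ± 0.33, both parts of the exon junction complex). Of the 16 RNA-binding proteins that limit their own mRNA 1 rose, Ptbp2, the neuronal polypyrimidine tract protein (1.93 ± 0.39, adjusted p = 0.00500), and 8 fell, with the largest value for its paralog Ptbp1 (-4.11 ± 0.38, adjusted p = 0.000223). Of the 13 partners 0 rose and 6 fell, among them Hnrnpa1 (-2.29 ± 0.35) and G3bp1 (-2.19 ± 0.31). Tardbp, at -1.31, was within the range of these. Of the 12 responders 7 were higher in neurons, including the synaptic genes Nrxn3 and Nlgn1, and 1 was lower (Eif4h, -1.48 ± 0.46). In footprints 8 of the responders were higher and 4 lower (Eif4h, Grn, Poldip3 and Hdgfl2), beside 70.9% of all genes (3900 higher and 3311 lower).

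The genes whose levels were most like that of Tardbp over the 14 libraries of a type, after each cell type's mean was removed, were Maf, Kpna1, Chsy3, Dok6 and Ppp2r5e in total mRNA (Pearson r 0.87, 0.86, 0.85, 0.81 and 0.81). In footprints they were Ckap4, Zfp385b, Dnajb4, Clptm1l and Nab1 (r 0.86, 0.84, 0.83, 0.82 and 0.80). The 99th percentile of r over 12403 and 10557 genes was 0.64 in both library types. Maf and Chsy3 had almost no reads in MN1 cells (mean with a human protein 0.845 and 0.460 CPM, with GFP 0). Ckap4, an endoplasmic reticulum membrane protein, was higher with a human protein in MN1 footprints (94.5 against 69.5 CPM) and lower in neurons (60.0 against 76.4 CPM), the same directions as Tardbp. The genes were picked by r over these same libraries, so a direction shared with Tardbp carries no weight of its own. The libraries share dates and depth, and these r are a description with no test.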

How the data were processed

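Footprints (fragments from monosome peaks) and poly(A)-selected total mRNA were sequenced from 14 cultures. The authors trimmed reads with cutadapt 1.8.1, removed non-coding RNA with Bowtie2, aligned the rest to GRCm38 with TopHat2 and counted them per gene with featureCounts 1.4.4. The deposited values are raw counts. No strand setting is given in the sources used here, so antisense reads cannot be told apart. CPM used TMM-scaled library sizes. Tests were edgeR 4.0.16 quasi-likelihood fits on all genes kept by a low-count filter (minimum count 10), with Benjamini-Hochberg adjustment and a threshold of 0.05. DESeq2 1.42.0, other scaling, no filter, left-out cultures and the replicate number as a block were alternatives. Footprints per mRNA was tested as an interaction of group and library type. Level intervals are exact (Clopper-Pearson) and cover counting error only, and 3 counts correspond to 0.482 to 20.2 CPM.

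Tardbp and the gene lists were chosen with earlier results of these data known. Genes named were Tardbp, its annotated copies, Prnp, the 5 most alike per library type, list members past the threshold and otherwise the 3 most expressed of each list. A member named by this rule is not reported here. Replicate numbers share a date per the labels, except for the year of 1 MN1 GFP footprint library. Deviations from group means of same-numbered cultures correlated at 0.265 to 0.374 in MN1 total mRNA, 0.235 to 0.296 in MN1 footprints, -0.165 to 0.511 in neuron total mRNA and 0.0272 to 0.222 in neuron footprints. No 2 libraries held identical counts. On simulated counts, 73% of genes changed by 1 on the log2 scale were recovered for A315T against GFP in MN1 total mRNA, 84% in MN1 footprints, 23% in neuron total mRNA and 81% in neuron footprints (both proteins against control). Recovery for footprints per mRNA was 34% in MN1 cells and 6% in neurons. Changes smaller than 1 were not simulated. Recovery at the size of the Tardbp differences from control was thus not measured.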

Additional observations from a re-analysis of the deposited data

Results flagged for a closer look

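Footprints at Tardbp lay on opposite sides of the control in the 2 cell types. All 4 MN1 footprint libraries with a human protein lay above both GFP libraries (mean log2 difference 0.40), and all 6 transgenic neuron footprint libraries lay below both WT libraries (mean log2 difference -0.33). The fitted difference between these responses was -0.70 ± 0.22 (log2, SE), with an edgeR adjusted p of 1.00 over all genes. It was between -0.86 and -0.67 when 1 culture was left out. In the MN1 libraries Gm13886 took 8.03 to 17.7% of the footprints at both genes with a human protein, against 0.971 to 1.11% with GFP, and in neurons 0 to 16.7% with a transgene, against 1.50 to 3.45% in WT. With the reads of both genes summed, the neuron pattern was lost: A315T replicate 2 (119 CPM) lay above both WT cultures (104 and 109.7 CPM), and the mean log2 difference was -0.24 (exact permutation p = 0.286). In MN1 cells the summed difference was 0.59, without overlap.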

How the results depend on the processing

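Of 349 values under an alternative, 308 kept their direction and their side of the threshold, 15 came to pass it, 2 no longer did and 24 changed sign. With no low-count filter MN1 total mRNA passed for hTDP-43, A315T and both proteins (0.73, 0.73 and 0.74), as did both proteins in DESeq2 (0.72). With the replicate block these were 0.72, 0.71 and 0.71, and with the reads of Gm13886 added as well 0.93, 0.97 and 0.95, while MN1 footprints then passed at 0.68, 0.57 and 0.63. The added reads were few with GFP, so they had to enlarge these differences. In neurons the block brought no Tardbp result past the threshold, and it turned A315T footprints per mRNA from 0.01 to -0.065 (-0.037 with no filter). A315T minus hTDP-43 in MN1 total mRNA turned to 0.035 with the reads of Gm13886 added and 0.036 with the block as well. Without both shallow hTDP-43 neuron cultures, neuron total mRNA turned to 0.014 for hTDP-43 against WT and to -0.25 for A315T minus hTDP-43. The causes were not tested.

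Leaving out 1 culture at a time, with a lone culture of a group assumed to vary like the other groups, gave the following ranges of log2 difference. In MN1 total mRNA they were 0.59 to 0.84 for hTDP-43, 0.61 to 0.82 for A315T, 0.62 to 0.82 for both and -0.14 to 0.12 for A315T minus hTDP-43, which turned without hTDP-43 replicate 1 (0.12) or A315T replicate 2 (0.039). MN1 footprints per mRNA ran from -0.38 to -0.035 for hTDP-43, and that of A315T minus hTDP-43 ran from -0.36 to 0.027, turning without hTDP-43 replicate 2. Neuron total mRNA ran from -0.64 to 0.17 for hTDP-43, -0.58 to 0.18 for A315T and -0.58 to 0.18 for both, each turning without WT replicate 3. A315T minus hTDP-43 there ran from -0.085 to 0.23, turning without hTDP-43 replicate 2 (-0.069), hTDP-43 replicate 3 (-0.085) or A315T replicate 1 (-0.079). Neuron footprints per mRNA ran from -0.49 to 0.24 for hTDP-43, turning without hTDP-43 replicate 1 (0.069) or WT replicate 2 (0.24). They ran from -0.40 to 0.31 for A315T, turning without WT replicate 3 (-0.40), A315T replicate 2 (-0.060) or A315T replicate 3 (-0.00095). For A315T minus hTDP-43 they ran from -0.022 to 0.22, turning without hTDP-43 replicate 1 (-0.022), and for both from -0.45 to 0.29, turning without hTDP-43 or A315T replicate 1 (0.033 each) or WT replicate 2 (0.29). The neuron minus MN1 response in total mRNA ran from -1.32 to -0.56. WT neurons against GFP cells ran from -1.79 to -1.14 in total mRNA, no longer passing without GFP replicate 1 (-1.31) or 2 (-1.46).

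The main fits called 0 to 1 gene in MN1 comparisons and 0 in neuron comparisons. With the block they called 0 to 283 and 0 to 35, with no filter 1 to 52 and 18 to 209, in DESeq2 0 to 11 and 0 to 1, and without 1 culture 0 to 334 and 0 to 1573. At the least depth, the shallowest neuron footprint libraries gave 10 and 15 reads at Tardbp.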
